A study of Mus musculus with 17 samples.

Results

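Lungs of mice given endotoxin were compared at an early and a late time, and the change between those times was set against genotype. The comparison used 12 of the 17 arrays of the series, 3 in each of 4 groups. Wild-type C57BL/6J mice were studied 7 h and 22 h after lipopolysaccharide (LPS) from Escherichia coli O111:B4, given intravenously at 20 mg/kg. Mice labelled NOS2-/-, which lack inducible nitric oxide synthase, were studied at the same times after the same dose. All mice were male, and no age was found for them. Every one of the 12 mice had received LPS, and no saline array entered the fit, so the values say how expression moved between the times and not how far it stood from an untreated lung. Groups at 7 h and 22 h were different mice. RNA of whole lung was hybridised to Affymetrix MOE430A arrays, 1 array per mouse, and all values are log2 signal of a probe set, the set of short probes that reports 1 transcript. The quantity described throughout is the change from 7 h to 22 h in NOS2-/- lungs minus the same change in wild-type lungs. It is called the difference in the change and is positive, or higher, where NOS2-/- lungs gained more or lost less signal. Of 22690 probe sets, 22626 were tested and 12393 genes were represented by a probe set that names 1 gene.

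Endotoxin is sensed by Toll-like receptor 4, which starts an early NF-kB programme of cytokines, chemokines and adhesion molecules and a later interferon programme carried by STAT and IRF transcription factors. The same signals induce the NOS2 gene. Both programmes are normally limited in time by induced inhibitors such as SOCS1, A20 and NF-kB inhibitor proteins, and in lung they run in endothelium, epithelium, macrophages and recruited neutrophils.

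The targeted gene did not separate the genotypes in the way a check of the labels needs. Signal of the Nos2 probe set lay between 8.93 and 9.06 in wild-type lungs and between 8.85 and 9.0 in NOS2-/- lungs at 7 h. At 22 h it lay between 8.19 and 8.80 in wild-type and between 8.99 and 9.25 in NOS2-/- lungs, higher in the latter by 0.66 (limma, adjusted p = 0.00791). The sources used here do not say whether this probe set lies in the deleted part of the gene, so it checks nothing about the labels, and every genotype direction below rests on the labels. Lung markers were high in all 12 arrays, with signal between 14.17 and 14.68 for Sftpc (surfactant protein C) and between 14.58 and 14.89 for Scgb1a1 (club cell secretory protein). One array stood apart. Wild-type LPS 22 h replicate 2 correlated at 0.949 and 0.955 with the other arrays of its group, against 0.994 or more for pairs within the other groups, and the SD of its values was 1.60 against 1.66 to 1.75. It is called the outlying array below, and the counts that rest on its group are given with and without it. Leaving it out also raised the counts over all genes, so counts without it are read beside those larger shares.

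The change from 7 h to 22 h differed between the genotypes for 370 probe sets, 1.64% of those tested, at an adjusted p under 0.05 over all probe sets. The difference was higher in NOS2-/- lungs for 309 probe sets and lower for 61. With quantile normalization of the 12 arrays the total was 564, split into 371 higher and 193 lower. Without wild-type 22 h replicate 2 the total was 2242, of which 1372 were higher and 870 lower. By gene, 192 of 12393 (1.55%) were higher and 40 (0.323%) were lower. All 192 and all 40 were also called without the outlying array, when the shares were 6.06% and 4.42%. Its absence likewise raised the shares of all genes that fell from 7.08% to 9.95% in wild-type and from 2.9% to 11.6% in NOS2-/- lungs, and those that rose from 2.68% to 9.56% and from 3.44% to 13.2%. Of the 192 and 40 genes, 58 and 14 were called with each of the 12 arrays left out in turn.

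The most frequent pattern was a decline in wild-type lungs that was smaller or not called in NOS2-/- lungs. Of the 192 higher genes, 151 fell in wild-type lungs, where 7.08% of all genes did, and 54 rose in NOS2-/- lungs, where 3.44% of all genes did. Their median change was -0.69 in wild-type and 0.19 in NOS2-/- lungs. The median genotype difference of the 192 genes was -0.04 at 7 h and 0.76 at 22 h. At 7 h, 1 of the 192 was higher and 7 were lower in NOS2-/- lungs. That is a larger share than the 0.702% of all genes that differed in either direction. At 22 h, 183 of the 192 were higher in NOS2-/- lungs, beside 8.74% of all genes. Of the 40 lower genes, 25 rose in wild-type lungs (2.68% of all genes), 22 fell in NOS2-/- lungs (2.9%) and 39 were lower in NOS2-/- lungs at 22 h (6.66%). These shares share arrays with the difference in the change and describe its form only. The 7 h count depended on 1 array, since 8035 probe sets differed between genotypes at 7 h without wild-type 22 h replicate 2, although the 7 h means were the same, against 146 with it. Over the 12 fits that left out 1 array that count ranged from 8 to 8035.

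**Figure D1:**
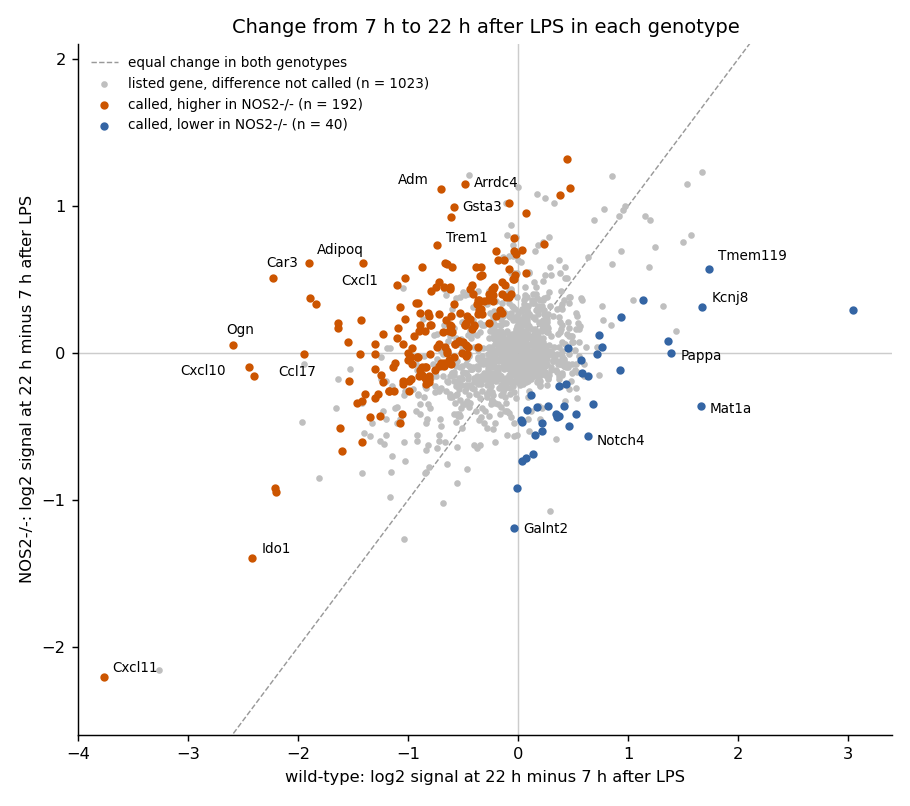
Change of log2 signal from 7 h to 22 h after LPS in wild-type (horizontal axis) and NOS2-/- lungs (vertical axis) for the 192 and 40 genes with a called difference and 1023 other genes of the lists described here, each point being 1 gene and the dashed line equal change. Orange points lie mostly left of zero and near or above zero on the vertical axis, with a decline in wild-type lungs, and 38 of the 40 blue points lie to the right of zero.

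Interferon-induced genes showed the largest median difference among the lists of genes examined. Of 30 measured genes of the interferon response, 8 had a higher difference in the change and none a lower one. The shares of all genes were 1.55% and 0.323%. The median difference of the 30 was 0.68 against -0.03 over all genes. In wild-type lungs 29 of the 30 fell, and 7 did in NOS2-/- lungs, beside 7.08% and 2.9% of all genes. Without wild-type 22 h replicate 2, these counts were 30 and 15, beside 9.95% and 11.6%. Then 16 members had a higher difference and none a lower one, beside 6.06% and 4.42%, and the median was 0.61. The median stayed between 0.52 and 0.79 over all alternatives, and the number called between 3 and 17.

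Cxcl10 encodes a chemokine for activated T cells that interferon gamma induces strongly. Its signal was 13.58, 13.67 and 13.65 in wild-type lungs at 7 h and 11.37, 10.81 and 11.37 at 22 h. The NOS2-/- values were 13.55, 13.51 and 13.74 at 7 h and 13.52, 13.49 and 13.50 at 22 h. The 3 wild-type arrays at 22 h thus lay more than 2 log2 units below the other 9, which overlapped. The difference in the change was 2.35 ± 0.19 (SE, adjusted p = 0.000615), a factor of 5.10, and it was called with every array left out.

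Ifit1 and Ifit2 encode antiviral proteins that bind RNA. Ifit1 signal was 13.21, 13.40 and 13.38 at 7 h and 11.93, 11.60 and 11.81 at 22 h in wild-type lungs, and 13.07, 13.46 and 13.62 and then 13.23, 13.18 and 13.16 in NOS2-/- lungs. The wild-type 22 h values again lay below all others, with a difference in the change of 1.35 ± 0.19 (SE, adjusted p = 0.00718). The difference was 2.17 for Ifit2 (adjusted p = 0.0191), called in 7 of 12 fits that left out an array, and 1.62 for Oasl1, an inhibitor of IRF7 translation (adjusted p = 0.0128). Irf1, a transcription factor of the same pathway, went from 13.36 ± 0.07 to 12.31 ± 0.02 in wild-type lungs (SD, n = 3) and from 12.90 ± 0.09 to 12.96 ± 0.05 in NOS2-/- lungs (SD, n = 3). It was lower in NOS2-/- lungs at 7 h by 0.46 and higher at 22 h by 0.65. Bst2, which tethers virions to the cell surface, had a difference of 1.10 (adjusted p = 0.00933), Isg20, an exonuclease, of 1.11 (adjusted p = 0.0180) and Rsad2, the antiviral enzyme viperin, of 0.96 (adjusted p = 0.0261). Mx1, a dynamin-like antiviral GTPase, had a difference of 1.87 that did not pass the test (adjusted p = 0.195), with wild-type values at 22 h of 8.69, 7.04 and 8.86.

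Genes induced by interferon gamma followed in part. Of 20 measured, 5 were higher and none lower, beside 1.55% and 0.323% of all genes, with a median difference of 0.43. Without the outlying array 8 were higher, beside 6.06% of all genes, with a median of 0.28. Socs1, the inhibitor of JAK kinases, had signal of 10.12, 10.47 and 10.30 in wild-type lungs at 7 h and 8.70, 8.84 and 8.42 at 22 h. In NOS2-/- lungs it had 10.07, 10.01 and 9.81 at 7 h and 10.22, 10.14 and 10.06 at 22 h, above every wild-type value at 22 h. Its difference in the change was 1.82 ± 0.17 (SE, adjusted p = 0.00108). Cxcl11 fell in both genotypes, with changes of -3.77 in wild-type and -2.21 in NOS2-/- lungs, and the falls differed by 1.56 (adjusted p = 0.00897), while another probe set of Cxcl11 gave 0.27 and was not called. Ido1, which degrades tryptophan, also fell in both, with changes of -2.42 and -1.4 (difference 1.02, adjusted p = 0.0363). Ifng itself had changes of -3.27 and -2.16, and their difference was not called (adjusted p = 0.312). In whole lung, fewer cells of a type and less RNA per cell cannot be told apart, here or in any list below.

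Promoters of 4 of these genes are shown because they hold the letters to which the interferon transcription factors are known to bind. Capitals mark the core of the interferon-stimulated response element, GAAANNGAAA on either strand, in Cxcl10, Ifit1 and Socs1, and the STAT dimer site TTCNNNGAA, which reads the same on both strands, in Irf1. Sequences are from RefSeq on GRCm38.p6, written 5′ to 3′ on the gene's strand, from 250 bases before to 50 after its start.
Cxcl10 (chr5:92348840-92349139, minus strand): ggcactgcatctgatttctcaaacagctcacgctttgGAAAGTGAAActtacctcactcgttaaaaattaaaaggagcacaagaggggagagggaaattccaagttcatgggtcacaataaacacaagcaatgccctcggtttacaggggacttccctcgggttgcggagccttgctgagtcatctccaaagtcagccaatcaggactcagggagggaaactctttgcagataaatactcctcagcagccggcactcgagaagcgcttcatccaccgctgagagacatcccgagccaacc
Ifit1 (chr19:34640639-34640938, plus strand): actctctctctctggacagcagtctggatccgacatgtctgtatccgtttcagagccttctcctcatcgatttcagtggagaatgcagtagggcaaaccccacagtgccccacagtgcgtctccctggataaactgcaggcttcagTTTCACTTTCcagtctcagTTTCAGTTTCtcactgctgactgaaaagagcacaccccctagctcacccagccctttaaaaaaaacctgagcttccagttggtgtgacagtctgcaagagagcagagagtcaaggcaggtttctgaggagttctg
Socs1 (chr16:10785487-10785786, minus strand): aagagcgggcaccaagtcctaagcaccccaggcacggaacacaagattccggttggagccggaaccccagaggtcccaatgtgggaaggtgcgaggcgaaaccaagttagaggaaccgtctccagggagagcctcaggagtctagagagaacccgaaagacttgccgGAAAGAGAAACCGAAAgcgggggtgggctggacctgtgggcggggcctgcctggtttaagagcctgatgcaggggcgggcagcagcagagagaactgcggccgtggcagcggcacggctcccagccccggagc
Irf1 (chr11:53769764-53770063, plus strand): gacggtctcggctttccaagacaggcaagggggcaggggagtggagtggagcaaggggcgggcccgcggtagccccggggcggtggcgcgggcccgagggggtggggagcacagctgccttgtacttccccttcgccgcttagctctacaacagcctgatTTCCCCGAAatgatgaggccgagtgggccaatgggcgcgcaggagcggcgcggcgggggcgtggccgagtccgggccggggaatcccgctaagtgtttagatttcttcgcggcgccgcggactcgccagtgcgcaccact

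The first match began 213 bases before the start in Cxcl10, 104 in Ifit1, 83 in Socs1 and 90 in Irf1. In Socs1 and Ifit1 the element occurred 2 times, overlapping in Socs1 and on the opposite strand in Ifit1. Promoters were at hand for 154 of the 192 higher genes, of which 12 (7.79%) held the element, against 380 of 9887 (3.84%) among all represented genes with a promoter. Among 21 genes of the interferon response list with a promoter, 11 (52.4%) held it. The STAT site was in 13% of promoters of higher genes and 8.45% of all, the hypoxia response core ACGTG in 31.8% and 26.9%, and the E-box CACGTG, which contains that core, in 14.9% and 10.8%. Of the 30 lower genes with a promoter, 2 held the interferon element (6.67%) and 4 the STAT site (13.3%). These shares are descriptions of letters in a window, with no test.

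Chemokines and cytokines that attract and activate leukocytes had, as a list, a median difference above that of all genes. Of 35 measured, 8 had a higher difference and none a lower one, beside 1.55% and 0.323% of all genes, with a median of 0.53. In wild-type lungs 22 fell and 1 rose, and in NOS2-/- lungs 5 fell and 1 rose. Among all genes 7.08% fell in wild-type and 2.9% in NOS2-/- lungs. Without the outlying array, 23 fell in wild-type and 10 in NOS2-/- lungs, beside 9.95% and 11.6%. A higher difference was then called for 15 and a lower one for 1, beside 6.06% and 4.42%.

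Ccl17 and Ccl22 are ligands of the receptor CCR4 on T cells. Ccl17 signal was 10.66, 10.85 and 10.66 in wild-type lungs at 7 h and 8.97, 8.81 and 8.55 at 22 h. It was 10.55, 10.28 and 10.24 and then 10.31, 10.37 and 10.35 in NOS2-/- lungs. The wild-type 22 h values stood alone, and the difference in the change was 1.94 ± 0.16 (SE, adjusted p = 0.000615), with 1.65 for Ccl22 (adjusted p = 0.000615). Cxcl1 attracts neutrophils, and its signal was 12.14, 12.38 and 12.46 in wild-type lungs at 7 h and 11.20, 10.47 and 11.07 at 22 h. NOS2-/- lungs had 11.96, 12.43 and 11.97 at 7 h and 13.14, 12.60 and 12.45 at 22 h. At 22 h the groups did not overlap, and the difference was 2.02 ± 0.31 (SE, adjusted p = 0.0110). Cxcl2, a ligand of the same receptor, fell in wild-type lungs by 0.65 (adjusted p = 0.0216) and rose in NOS2-/- lungs by 0.60 (adjusted p = 0.0440). Ccl2, which recruits monocytes, had a difference of 1.42 (adjusted p = 0.0313), and Csf1, the growth factor of macrophages, of 1.11 (adjusted p = 0.00699).

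The members did not move as a block. Il1b, encoding interleukin 1 beta, differed at the early time and not the late one. Its signal was 13.58, 13.28 and 13.44 in wild-type and 12.76, 12.45 and 12.62 in NOS2-/- lungs at 7 h, lower by 0.82 in the latter (adjusted p = 0.0266). At 22 h it was 12.68, 12.40 and 12.30 and 12.88, 12.49 and 12.56, and its difference in the change of 1.00 (adjusted p = 0.0276) went with a change of -0.97 in wild-type lungs, where the late values overlapped those of NOS2-/- lungs. Tnf had a difference of 0.32 (adjusted p = 0.404). Il6 had a difference of 1.13 that was not called (adjusted p = 0.360), with NOS2-/- values at 22 h of 12.12, 11.22 and 10.77.

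**Figure D2:**
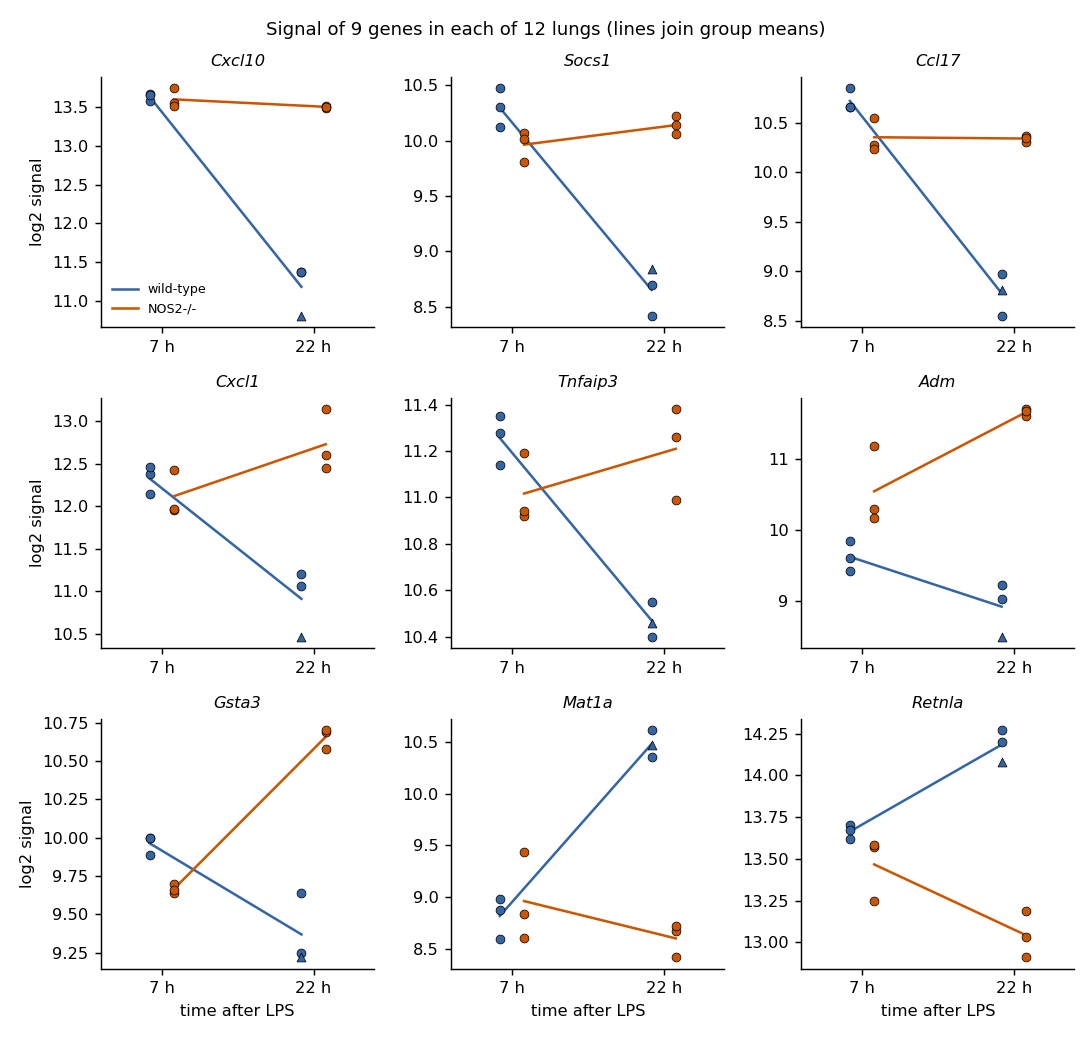
Log2 signal of 9 genes in each of the 12 lungs at 7 h and 22 h after LPS, wild-type in blue and NOS2-/- in orange, with lines joining group means of 3 mice and a triangle for wild-type 22 h replicate 2. In the top row the late wild-type lungs lie lowest while the NOS2-/- means of the times differ by at most 0.17, and in Mat1a and Retnla the late wild-type lungs lie highest.

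Genes of NF-kB and Toll-like signalling had the highest share of called members among the inflammatory lists. Of 25 measured, 11 were higher and none lower, beside 1.55% and 0.323% of all genes, with a median difference of 0.49. In wild-type lungs 14 fell against 1 in NOS2-/- lungs, beside 7.08% and 2.9% of all genes. Without the outlying array the falls were 16 and 5, beside 9.95% and 11.6%. Then 13 members were higher and 1 lower, beside 6.06% and 4.42%. Over all alternatives between 1 and 13 were higher. They included feedback inhibitors, receptors and NF-kB subunits. Tnfaip3 encodes A20, which removes ubiquitin chains from signalling complexes. Its signal was 11.14, 11.35 and 11.28 and then 10.55, 10.46 and 10.40 in wild-type lungs, and 10.92, 11.19 and 10.94 and then 11.38, 11.26 and 10.99 in NOS2-/- lungs. The groups did not overlap at 22 h, and the difference was 0.98 ± 0.16 (SE, adjusted p = 0.0125). Among inhibitors, Nfkbie had a difference of 0.77 (adjusted p = 0.0164) and Tnip1, an A20 partner, of 0.61 (adjusted p = 0.0453). Among receptors, Cd40 had 1.26 (adjusted p = 0.00271), Tlr3 had 1.13 (adjusted p = 0.0316) and Tlr2 had 1.03 (adjusted p = 0.0183). The endotoxin receptor Tlr4 had -0.43 (adjusted p = 0.156), and -0.46 (adjusted p = 0.0387) without the outlying array. Among subunits, Rel had 0.49 (adjusted p = 0.0374) and Relb 0.54 (adjusted p = 0.0378), while Bcl3, a nuclear co-activator, had 1.05 (adjusted p = 0.0203). Bcl3 was called in 4 of the 12 fits that left out an array.

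Genes of the endothelial list differed among themselves, and the called ones encode adhesion molecules. Icam1, a ligand of leukocyte integrins, had signal of 13.22, 13.16 and 13.18 and then 12.22, 12.07 and 12.28 in wild-type lungs. In NOS2-/- lungs it had 13.24, 13.09 and 13.22 and then 13.26, 13.16 and 13.11, so that both times overlapped. The difference was 1.00 ± 0.11 (SE, adjusted p = 0.00271). Vcam1 had a difference of 2.25 (adjusted p = 0.0490), but its wild-type values at 22 h were 9.03, 7.86 and 9.70, and it was called in 2 of the 12 fits that left out an array. Of 31 measured genes of this list Icam1 and Vcam1 were the 2 called, both higher, beside 1.55% of all genes, and the median was -0.21. No gene of the list was called lower, beside 0.323% of all genes. Notch4, an endothelial receptor outside this list, was called lower (-1.20, adjusted p = 0.00914). Another of its probe sets gave -0.17 and was not called. In wild-type lungs 11 of the 31 rose and 6 fell, beside 2.68% and 7.08% of all genes. Without the outlying array 15 rose and 8 fell there, beside 9.56% and 9.95%. A higher difference was then called for 4 and a lower one for 5, beside 6.06% and 4.42%. Vwf, the von Willebrand factor that tethers platelets, had a difference of 1.21 (adjusted p = 0.0574), and 0.97 (adjusted p = 0.00428) without that array. Tie1, an endothelial receptor, had -0.83 (adjusted p = 0.0536), and -0.67 (adjusted p = 0.00322) without it.

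**Figure D3:**
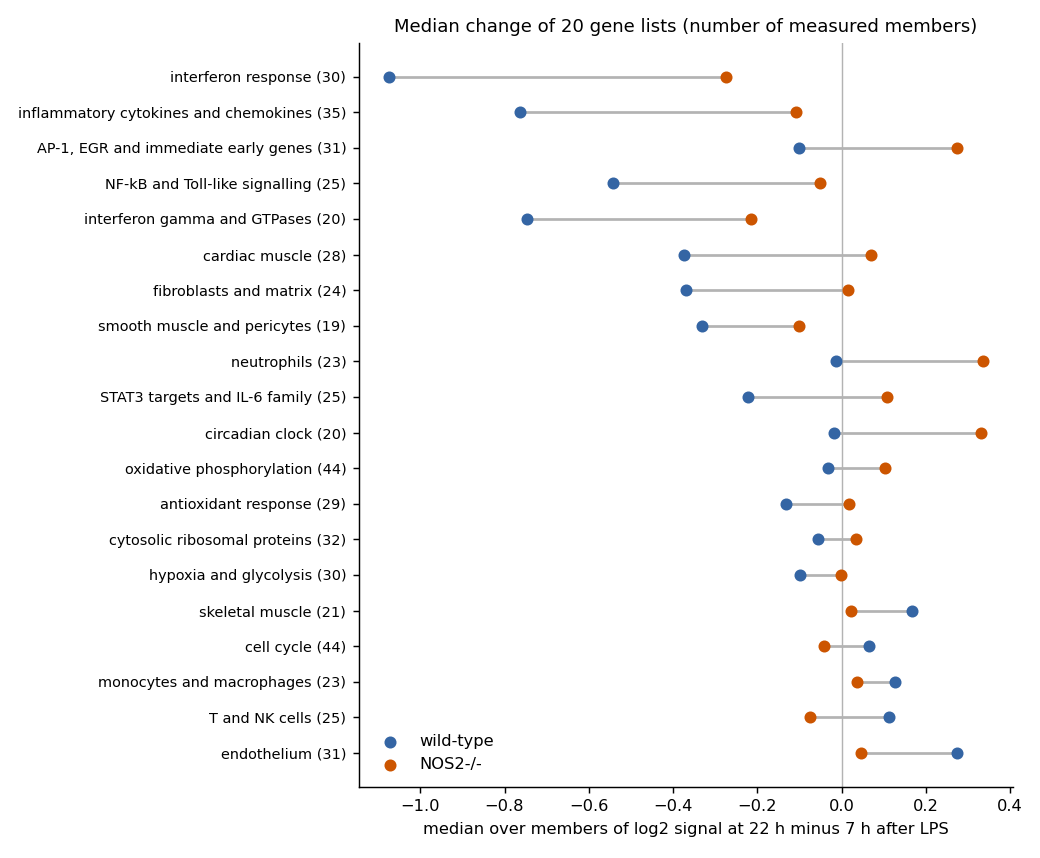
Median change of log2 signal from 7 h to 22 h in wild-type (blue) and NOS2-/- lungs (orange) over the measured members of 20 lists, ordered by the median difference, with the number of members in brackets. The inflammatory and interferon lists lie furthest to the left in wild-type lungs (-1.075 for the interferon response) and nearer to zero in NOS2-/- lungs (-0.275).

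Among immediate early and clock genes, some rose in NOS2-/- lungs. Of 31 immediate early genes, 5 were higher and none lower, beside 1.55% and 0.323% of all genes. Without the outlying array 13 were higher and 1 lower, beside 6.06% and 4.42%. Here 8 fell in wild-type lungs with and without that array, beside 7.08% and 9.95% of all genes. In NOS2-/- lungs 8 rose, or 15 without it, beside 3.44% and 13.2%. Atf3, a stress-induced repressor, fell by 1.28 in wild-type lungs (difference 1.01, adjusted p = 0.00601), and Gadd45b, a stress sensor, by 0.81 (difference 1.06, adjusted p = 0.00603). Nr4a1, a nuclear receptor, rose in NOS2-/- lungs by 1.02 (adjusted p = 0.00904), and its difference of 1.13 missed the threshold (adjusted p = 0.0549) and passed it without the outlying array (1.03, adjusted p = 0.0129). Of 20 clock genes, 8 rose in NOS2-/- lungs and none in wild-type lungs, beside 3.44% and 2.68% of all genes. Without the outlying array 11 and 3 of the 20 rose, beside 13.2% and 9.56%. The difference was called for 1 of the 20, and for 8 without that array. The one called in both was Per1, a repressor in the clock loop and also a glucocorticoid target. Its signal was 11.33, 11.50 and 11.43 and then 11.47, 11.22 and 11.44 in wild-type lungs, and 11.61, 11.53 and 11.34 and then 12.33, 12.28 and 12.19 in NOS2-/- lungs. The late NOS2-/- lungs stood above the other 9, with a difference of 0.82 ± 0.13 (SE, adjusted p = 0.0127). The hour of day of the harvests was not found in the labels or methods.

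Adm and Kcnj8 were the 2 genes called among 31 vasoactive genes, 1 in each direction, beside 1.55% and 0.323% of all genes. The counts became 4 higher and 3 lower without the outlying array, beside 6.06% and 4.42% of all genes. The median of the list went from -0.16 to -0.12. Adm encodes adrenomedullin, a vasodilator peptide that hypoxia and endotoxin induce. Its signal was 9.42, 9.60 and 9.84 and then 9.03, 8.5 and 9.23 in wild-type lungs, and 10.16, 11.17 and 10.29 and then 11.59, 11.69 and 11.67 in NOS2-/- lungs. The genotypes did not overlap at either time, but the 7 h difference of 0.92 was not called by limma (adjusted p = 0.0906). The gap widened to 2.73 at 22 h. The difference in the change was 1.80 ± 0.35 (SE, adjusted p = 0.0312), called in 4 of 12 fits that left out an array. Kcnj8, a subunit of the potassium channel that vasodilators open, was 8.63, 8.64 and 8.48 and then 10.58, 9.87 and 10.29 in wild-type lungs. The NOS2-/- lungs had 8.54, 8.51 and 8.45 and then 8.89, 8.82 and 8.70, below every late wild-type value. The difference was -1.36 ± 0.20 (SE, adjusted p = 0.00933).

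Nos3 and Nos2, 2 of the nitric oxide synthases, missed the threshold with all arrays and passed it in 2 of the 12 fits that left out an array. Nos3, the endothelial enzyme, was 8.29, 8.73 and 8.42 and then 10.03, 10.03 and 9.32 in wild-type lungs, and 8.37, 8.56 and 8.39 and then 8.85, 8.67 and 8.76 in NOS2-/- lungs. It rose in wild-type lungs by 1.31 (adjusted p = 0.00103) and was lower in NOS2-/- lungs at 22 h by 1.03 (adjusted p = 0.00315). Its difference in the change was -0.99 (adjusted p = 0.0754), and -0.88 (adjusted p = 0.0226) without the outlying array. Nos2 had a difference of 0.72 (adjusted p = 0.0888), and 0.56 (adjusted p = 0.0160) without that array. Nos1, the neuronal enzyme, had -0.47 (adjusted p = 0.512), and -0.02 (adjusted p = 0.939) without that array. Stat3 had 0.20 (adjusted p = 0.430), with -0.31 by another of its probe sets, and Stat6 had -0.16 (adjusted p = 0.586). Sirt1 had 0.72 (adjusted p = 0.366), and 0.30 (adjusted p = 0.161) without the outlying array. None of 15 genes of cyclic GMP signalling, the pathway that nitric oxide activates, was called in limma, where 1 had an unadjusted p under 0.05 and at most 2 were called under any alternative.

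Metabolic and antioxidant genes were few among those called, but Gsta3 was called with every array left out. Gsta3, a glutathione transferase, was 10.0, 9.89 and 10.0 and then 9.25, 9.22 and 9.64 in wild-type lungs. NOS2-/- lungs had 9.64, 9.70 and 9.66 and then 10.58, 10.69 and 10.70. It thus fell in one genotype and rose in the other, crossing between the times, with a difference of 1.58 ± 0.14 (SE, adjusted p = 0.000984). Gsta4, Gstm1 and Gstm2 of the same family were also higher, with differences of 0.70 (adjusted p = 0.0380), 0.63 (adjusted p = 0.0230) and 0.46 (adjusted p = 0.0342), and together these made the 4 called among 29 antioxidant genes, all higher, beside 1.55% of all genes. Gsta4, Gstm1 and Gstm2 were called in 3, 5 and 4 of the 12 fits that left out an array. Leaving out the outlying array gave 5 higher and 4 lower antioxidant genes, beside 6.06% and 4.42% of all genes. The median of the list was then 0.02 in place of 0.11. Arrdc4, an adaptor that glucose sensing induces, rose in NOS2-/- lungs by 1.15 (difference 1.64, adjusted p = 0.00601).

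Smooth muscle, stromal and fat genes included large differences, again with falls in wild-type lungs. Of 19 smooth muscle and pericyte genes, 9 fell in wild-type and none in NOS2-/- lungs, or 10 and 1 without the outlying array. Among all genes these shares were 7.08% and 2.9%, or 9.95% and 11.6% without that array. The difference was higher for 3 and lower for 1, Kcnj8, and higher for 9 and lower for 1 without that array. Among all genes 1.55% were higher and 0.323% lower, or 6.06% and 4.42% without it. Tagln, an actin-binding protein of smooth muscle, was 11.22, 11.12 and 10.87 and then 10.13, 10.09 and 10.07 in wild-type lungs, and 11.14, 11.01 and 11.04 and then between 10.88 and 11.06 in NOS2-/- lungs. The 3 late wild-type values were the lowest, with a difference of 0.89 ± 0.13 (SE, adjusted p = 0.00911). Of 24 fibroblast and matrix genes 2 were higher, Mfap4 by 1.25 (adjusted p = 0.0235) and Ogn, a small matrix proteoglycan, by 2.64 (adjusted p = 0.0169), each called in 7 of the 12 fits that left out an array. When the outlying array was left out, 9 of the 24 were higher and 1 lower. Ogn was 10.48, 10.49 and 10.59 and then 8.43, 6.91 and 8.46 in wild-type lungs and between 10.62 and 10.88 in all 6 NOS2-/- lungs. Itga8, an integrin of such cells, had 1.84 (adjusted p = 0.0106).

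Heart muscle genes are also expressed in mouse lung, in the muscle sleeve around pulmonary veins. Of 28 measured, 11 fell in wild-type and none in NOS2-/- lungs, beside 7.08% and 2.9% of all genes. A higher difference was called for 5 of the 28, beside 1.55% of all genes. Without the outlying array these counts were 16, 1 and 15, and the shares of all genes were 9.95%, 11.6% and 6.06%. Actc1, cardiac actin, was 11.73, 11.58 and 11.42 and then 10.59, 10.28 and 10.32 in wild-type lungs, against 11.31 to 11.81 in NOS2-/- lungs (difference 0.92, adjusted p = 0.0281). Myl7, the atrial myosin light chain, had 0.89 (adjusted p = 0.0180). Actc1 and Myl7 were called in 5 and 7 of the 12 fits that left out an array. The median level over the list, each gene centred on its median over the 12 arrays, was -0.22, -0.10 and -0.38 in wild-type lungs at 22 h. It was between -0.04 and 0.14 in the other 9. The ventricular genes Myl2 and Myh7 had differences of -0.17 and -0.44, neither called. Whether the amount of vein taken with each lung moved with these values was not tested.

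Car3 and Adipoq, genes of fat cells, had differences of 2.73 and 2.51. Adipoq, encoding adiponectin, was 8.53, 8.66 and 8.91 and then 6.80, 6.56 and 7.04 in wild-type lungs. In NOS2-/- lungs it was 8.67, 8.14 and 9.10 and then 9.52, 8.94 and 9.30. Late wild-type lungs were the lowest, and the difference was 2.51 ± 0.32 (SE, adjusted p = 0.00601), with 2.73 ± 0.41 for Car3, a carbonic anhydrase (SE, adjusted p = 0.0103), of which another probe set gave 0.70 and was not called. These were the 2 called among 11 fat genes. Fabp4 and Lpl, which capillaries and macrophages also express, had 0.28 and -0.01, with -0.26 by another probe set of Fabp4, and the leptin gene Lep had -0.16, none of them called. The median level over the fat list, each gene centred on its median, was -0.24 to -0.07 in late wild-type and 0.04 to 0.14 in late NOS2-/- lungs. The part of fat tissue around the lung in this result was not tested.

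**Figure D4:**
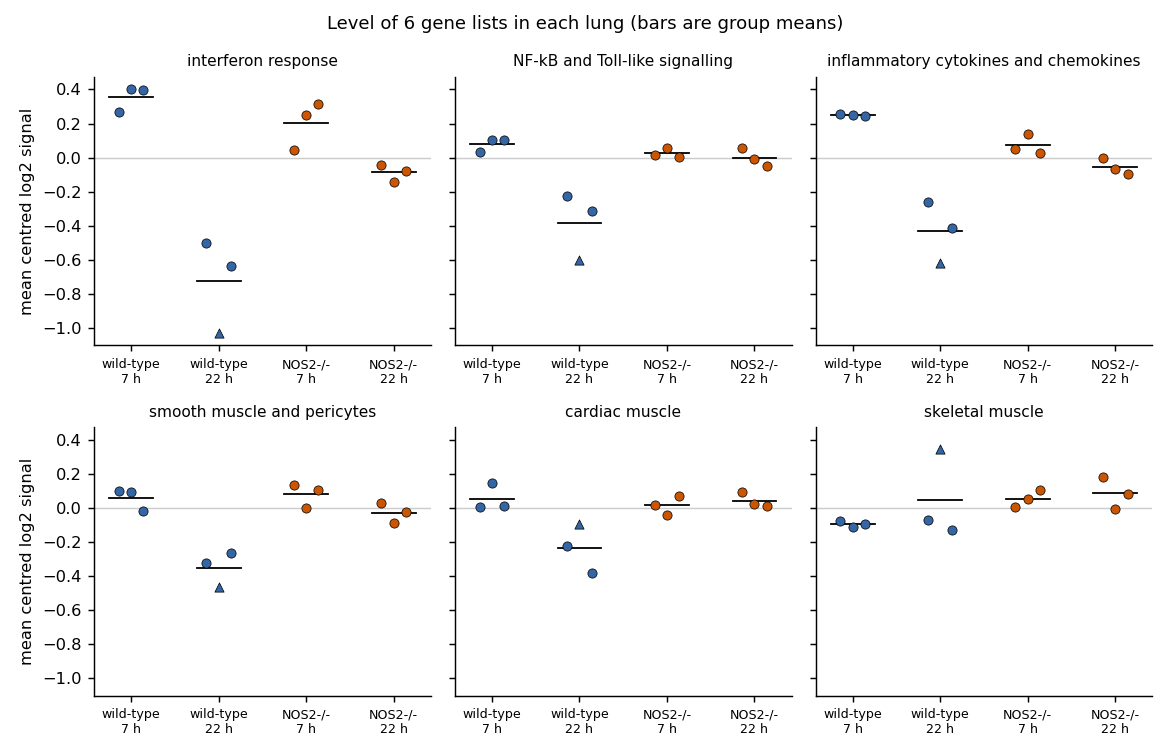
Median log2 signal over the measured members of 6 lists in each lung, every gene centred on its median over the 12 arrays. Wild-type (blue) and NOS2-/- lungs (orange) are drawn at 7 h and 22 h, with bars for group means and a triangle for wild-type 22 h replicate 2. The axis label of mean centred signal refers to this median. The late wild-type lungs are lowest for the inflammatory, smooth muscle and cardiac lists, and for skeletal muscle replicate 2 alone is high at 0.34. This was not particular to muscle. In lists not drawn, that array stood at 0.45 for cartilage, 0.23 for squamous epithelium, 0.21 for liver and 0.185 for pancreas. Replicates 1 and 3 of wild-type 22 h lay below zero in each of these lists.

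Of 15 genes of club and ciliated airway cells, 3 were higher and 1 lower, beside 1.55% and 0.323% of all genes. Without the outlying array 5 were higher and 1 lower, beside 6.06% and 4.42% of all genes. Cyp2f2, the cytochrome P450 of club cells, fell by 1.42 in wild-type and by 0.33 in NOS2-/- lungs (difference 1.09, adjusted p = 0.00315). Cbr2, a carbonyl reductase of the same cells, had 0.79 (adjusted p = 0.0114) and Aldh1a1, a retinal dehydrogenase, 1.00 (adjusted p = 0.0128), whereas Muc5b, a secreted mucin, had -0.77 (adjusted p = 0.0321). Muc5b was called in 4 of the 12 fits that left out an array. In type 1 alveolar cell genes the 1 called of 11 was Pdpn, which encodes podoplanin (1.07, adjusted p = 0.0109), and 4 were higher without the outlying array. In type 2 cell genes the 1 called of 17 was Sftpb, surfactant protein B (0.57, adjusted p = 0.0231), itself called in 3 of the 12 fits. Of these 17, 2 were higher and 4 lower when that array was left out.

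Among the 40 genes with a lower difference in the change, 17 rose in wild-type lungs with no called change in NOS2-/- lungs, and for 15 the called change was in NOS2-/- lungs alone. Mat1a, the methionine adenosyltransferase best known from liver, was 8.60, 8.88 and 8.98 and then 10.61, 10.47 and 10.35 in wild-type lungs. In NOS2-/- lungs it was 8.84, 9.44 and 8.61 and then 8.67, 8.72 and 8.42. The late wild-type lungs lay above the other 9, and the difference was -2.02 ± 0.26 (SE, adjusted p = 0.00601). Of 15 measured liver genes none was called by limma (1 at an unadjusted p under 0.05, and at most 1 called under any alternative) and the albumin gene Alb had -0.27. Pappa, a protease that frees insulin-like growth factor, rose by 1.39 in wild-type lungs and had a change of 0.00 in NOS2-/- lungs (difference -1.38, adjusted p = 0.00603). Tmem119 rose in both, by 1.73 and 0.57 (difference -1.15, adjusted p = 0.0109). Orm2, an acute-phase protein, had -1.28 (adjusted p = 0.0261) at low signal of 5.94 to 8.0. Its relative Orm1 rose in both genotypes, by 1.5 and 0.75, a difference that was not called (adjusted p = 0.150) but was without the outlying array (-0.95, adjusted p = 0.00195). Galnt2, a glycosyltransferase, was the reverse case, with a change of -0.04 in wild-type lungs and of -1.19 in NOS2-/- lungs (difference -1.14, adjusted p = 0.0276). Orm2 and Galnt2 were each called in 3 of the 12 fits that left out an array, against 12 for Mat1a, Pappa and Tmem119.

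In a smaller group the genotypes moved in opposite directions, each change passing the test on its own. This held for 17 of the 192 higher and 7 of the 40 lower genes. Retnla, a secreted marker of macrophage activation by interleukin 4, was 13.70, 13.62 and 13.67 and then 14.20, 14.08 and 14.27 in wild-type lungs. It was 13.57, 13.58 and 13.25 and then 12.91, 13.19 and 13.03 in NOS2-/- lungs. The values of the genotypes did not overlap at either time, but the 7 h difference of -0.19 was not called by limma (adjusted p = 0.301). The genotypes moved apart, with a difference in the change of -0.94 ± 0.15 (SE, adjusted p = 0.0111). Notch4, an endothelial receptor, rose by 0.63 and fell by 0.57 (difference -1.20, adjusted p = 0.00914), and Cldn2, a tight junction protein, rose by 0.68 and fell by 0.35 (difference -1.03, adjusted p = 0.00315). Other probe sets of both genes gave -0.17 and -0.22 and were not called. Cmtm3 and Ldb2, a transcription co-factor, had -0.96 (adjusted p = 0.0109) and -0.80 (adjusted p = 0.00843). In the other direction, Trem1 encodes a receptor of neutrophils and monocytes that amplifies their activation. It was 10.37, 10.26 and 10.29 and then 9.90, 9.23 and 9.57 in wild-type lungs, and 9.55, 9.61 and 9.45 and then 10.28, 10.21 and 10.31 in NOS2-/- lungs, so that each genotype ended near where the other began. The difference was 1.47 ± 0.19 (SE, adjusted p = 0.00601). Scel, of cornified envelopes and type 1 cells, had 1.53 (adjusted p = 0.00933), Scarb1, the receptor for high-density lipoprotein, 1.46 (adjusted p = 0.00601) and Gabpb1, a transcription factor subunit, 1.28 (adjusted p = 0.0125).

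Counts in the lists of leukocyte genes depended on the outlying array. Over all genes, 1.55% had a higher and 0.323% a lower difference, or 6.06% and 4.42% without it. Genes that rose made up 3.44% in NOS2-/- and 2.68% in wild-type lungs, or 13.2% and 9.56% without it. A single call in such a list is not read as a result about the cells. Of 23 neutrophil genes, 1 was called, Trem1, and 10 rose in NOS2-/- lungs against 4 in wild-type lungs. Without that array 5 had a higher and 1 a lower difference, and 14 and 7 rose. Camp, an antimicrobial peptide, had a difference of 1.66 (adjusted p = 0.0954), and 1.58 (adjusted p = 0.0311) without it. Of 23 monocyte and macrophage genes 1 was higher, the Fc receptor Fcgr4, and 1 lower, Aif1, or 1 and 4 without the outlying array. Fcgr4 and Aif1 were called in 3 and 2 of the 12 fits that left out an array. Of 25 T and NK cell genes Il7r alone was called (-0.77, adjusted p = 0.0313), in 3 of those 12 fits. Without the outlying array 1 of the 25 was higher and 4 lower. None of 16 B cell genes was called by limma, where 3 had an unadjusted p under 0.05, and 4 were lower without it. Of 24 genes of the STAT6 pathway and alternative activation 4 were higher, Ccl17, Ccl22 and Socs1 among them, and 2 lower, Retnla among them, or 5 and 5 without the outlying array.

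In 21 of the 55 lists no member was called by limma, with 40 of their 415 measured genes at an unadjusted p under 0.05. The share of all genes at that level was not counted. Of the 415, 12 were higher and 10 lower without the outlying array, beside 6.06% and 4.42% of all genes. The 21 lists included the cell cycle (44 genes, none at an unadjusted p under 0.05 and none called under any alternative). Others were cytosolic ribosomal proteins (32 genes, 2 at that level), MHC class II (12 genes, 1) and oxidative phosphorylation (44 genes, 3). Lists of tissues that a dissected lung can carry also gave no call, among them skeletal muscle, cartilage, squamous epithelium, pancreas and liver, where skeletal muscle, cartilage and liver had 1 higher gene each without the outlying array. Skeletal actin (Acta1) was 8.04, 6.82 and 8.53 in late NOS2-/- lungs, an uneven level within 1 group.

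**Figure D5:**
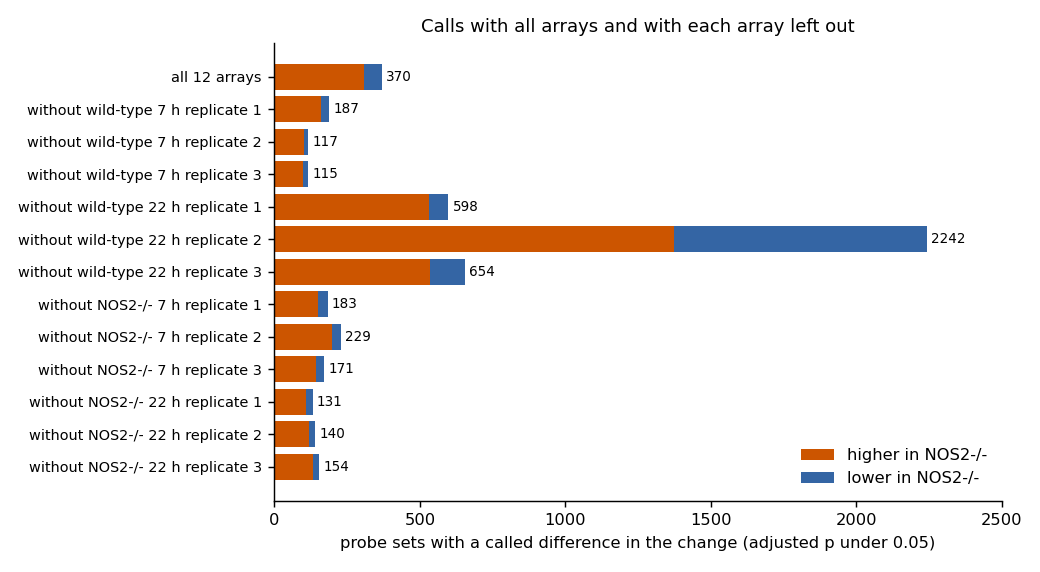
Number of probe sets with a called difference in the change with all 12 arrays and with each array left out, split by direction (orange higher and blue lower in NOS2-/- lungs). The count lies between 115 and 654 except without wild-type 22 h replicate 2, when it is 2242.

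Every array moved the count of calls by over 1.5 times when it was left out. The count was 187, 117 and 115 without wild-type 7 h replicates 1, 2 and 3, and 598, 2242 and 654 without those of wild-type 22 h. It was 183, 229 and 171 without NOS2-/- 7 h replicates 1, 2 and 3, and 131, 140 and 154 without those of NOS2-/- 22 h. In each of the 12 fits more probe sets were higher than lower.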

How the data were processed

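RNA of 1 lung per mouse was hybridised to 1 Affymetrix MOE430A array. The authors processed the arrays with the affy package in R, and the deposited values are log2 signal per probe set. No source used here names the normalization method or the package version. Differences at low signal can be understated on such arrays, and 3 mice per group bound the precision. Groups came from the sample labels, 3 arrays in each of 4 LPS groups, and 5 saline arrays were left out. A model with 1 mean per group was fitted to 12 arrays with limma 3.58.1 in R 4.3.3 (lmFit and eBayes) for 22626 probe sets, after 64 control probe sets were removed. P-values were two-sided and Benjamini-Hochberg adjusted over all probe sets, with a threshold of 0.05. They set each contrast against the spread between mice within groups, pooled over the 4 groups and moderated across probe sets. The outlying array therefore enters the spread used for every contrast. A gene was represented by its probe set with the highest mean over the 12 arrays, among 20380 probe sets that name 1 gene. The 55 lists of processes and cell types, the named genes and the comparison itself were chosen with earlier results of these data known. Named genes were those with the largest called differences and the largest of those called with opposite time changes in the 2 genotypes. Others were list members (mainly those with the smallest p), cell type markers and genes the study reasons from. Lists are given as counts and medians, with no test. Alternatives changed the arrays, the normalization, the filter, the variance model, the weights, the replicate block, the probe set and the threshold, and left out each array in turn. Without wild-type 22 h replicate 2 was also used beside the results. The scripts were tested on simulated data. Values of a few genes the study names are not given. Figures were drawn with matplotlib 3.10.9.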

Additional observations from a re-analysis of the deposited data

Results flagged for a closer look

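The change from 7 h to 22 h differed between the genotypes for 370 probe sets by the test of the difference itself. The 10 genes listed here had the largest differences in each direction among 17 higher and 7 lower genes that changed in opposite directions. In these genes the change in each genotype passed the test on its own and the difference was called. Scel, with a difference of 1.53, Trem1 with 1.47, Scarb1 with 1.46, Gsta3 with 1.58 and Gabpb1 with 1.28 fell in wild-type lungs and rose in NOS2-/- lungs. Notch4 with -1.20, Cldn2 with -1.03, Cmtm3 with -0.96, Retnla with -0.94 and Ldb2 with -0.80 rose in wild-type lungs and fell in NOS2-/- lungs. Of these, 9 were called with each of the 12 arrays left out in turn and Gabpb1 in 11 of the 12 fits.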

How the results depend on the processing

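More probe sets were higher than lower in the difference in the change under every alternative, while the count of 370 moved. It was 687 with all 17 arrays, 564 after quantile normalization, 2046 with array weights, 73 at an adjusted p under 0.01 and 110 with a difference of 1 or more required. Leaving out 1 array gave 115 to 2242. For the change in wild-type lungs (1967) the values were 3169 with array weights, 1282 with 1 probe set per gene, 896 at the stricter p and 245 with a change of 1 or more, and 993 to 4141 without 1 array. For NOS2-/- lungs (1315) they were 6742, 850, 420 and 92, and 460 to 5291. The genotypes at 7 h differed for 146 probe sets, for 454 with all arrays, 393 after quantile normalization, 475 with array medians subtracted, 262 above the 40th percentile of mean signal, 10421 with array weights, 8 at the stricter p and 12 at 1 or more, and for 8 to 8035 without 1 array. At 22 h they differed for 3177, for 5428 with array weights, 2011 with 1 probe set per gene, 1384 at the stricter p and 265 at 1 or more, and for 1677 to 7082 without 1 array. Fewer features were tested with 1 probe set per gene, and the cause of the other moves was not tested. Array weights gave wild-type 22 h replicate 2 a weight of 0.0416, against 0.562 to 3.66 for the others. Another probe set reversed the sign for Icosl (-0.30), Myl4 (-0.41) and Stat3 (-0.31).

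Deviations of samples that share a replicate number correlated from -0.238 to 0.362 (median -0.0136), and those of other pairs from -0.364 to 0.314 (median -0.0111). These values do not show a pairing, and whether the numbers mark a shared batch was not tested. With the replicate block 234 probe sets were called, 193 higher and 41 lower. Of 89 named genes with a called difference, 40 were called in all 12 fits that left out an array.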
